A study of Arabidopsis thaliana with 14 samples.

Results

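Chloroplast-encoded transcripts were compared between the Arabidopsis wild type Col-0 and the mutant ibm1-1, whose IBM1 gene for a histone demethylase has a point mutation in the Col-0 background. The genes were taken as the rows of the medium count table whose locus number begins with ATCG and whose counts over the medium libraries sum to at least 10. This rule kept 112 of 133 chloroplast rows, out of 33602 genes in the table, and 53 of the 112 were also listed in the soil table of 21912 genes. The last gene kept had a summed count of 15 and the first left out had 9. The 21 rows left out held 54 counts in all, and 7 of them had no count. The rule used the summed count only, and no difference between genotypes.

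In the medium experiment, 7-day-old seedlings of each genotype were collected from MS medium, with 2 biological replicates per genotype. In the soil experiment, seedlings spent 5 days on MS plates and 10 days in soil, were described as 2 weeks old and were harvested whole, with 3 biological replicates per genotype, each a pool of seedlings. The labels name regular growth and no further treatment for either experiment. All plants were whole seedlings, so green and non-green organs were measured together, and fewer chloroplasts or chloroplast-rich cells cannot be told apart from less chloroplast RNA per cell. The normalized count of IBM1 itself (AT3G07610) was 515 ± 30.4 for Col-0 and 339 ± 0.024 for ibm1-1 in medium (SD, n = 2; log2 fold change −0.60, adjusted p = 0.00722), and 616 ± 17.9 and 459 ± 15.1 in soil (SD, n = 3; −0.42, adjusted p = 1.2e-06). Since the allele is a point mutation, these levels do not check the genotype of a library.

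The chloroplast keeps a small circular genome of its own. It encodes core proteins of the photosystems, the ATP synthase, the large subunit of Rubisco, ribosomal proteins, subunits of a bacterial-type RNA polymerase, and the rRNAs and tRNAs of the organelle. That polymerase works with sigma factors made in the nucleus, beside a phage-type polymerase that is also nuclear-encoded, and the transcripts are then cut, spliced and edited by nuclear-encoded proteins. Chloroplast transcripts mostly lack the stable poly(A) tails of nuclear mRNA, and an added tail marks them for decay. An mRNA library therefore captures them poorly and unevenly. How mRNA was selected for these libraries is not given in the sources used here, so the counts describe the chloroplast RNA that entered these libraries and not its amount in the plant.

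The ATCG numbers are not paired with gene names in the count tables. Notes of the RefSeq annotation name a few of them, and the 4 described here could be placed on the RefSeq chloroplast genome (TAIR10.1, 154478 bases) by product. They are cemA, which encodes an envelope membrane protein (ATCG00530, Pltd:60741-61430, plus strand), rpl20 (ATCG00660, Pltd:68512-68865, minus strand), clpP (ATCG00670, Pltd:69910-71882, minus strand) and rpl2 (ATCG01310). The genes rpl20 and rpl2 encode proteins of the chloroplast ribosome, and clpP a proteolytic subunit of the Clp protease. The coding sequence of cemA and of rpl20 is a single exon, that of clpP has 3 exons and that of rpl2 has 2. Another, ATCG00430, is called photosystem II reaction center protein G in the note of a nuclear gene whose protein it matches (AT5G11770). No chloroplast gene of that product name was found, so the name is not taken as its identity here. A comparison by gene group could not be made for the other members, and they are described by number, level and difference.

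Runs of A inside a transcript are one place where an oligo(dT) primer or bead can anneal to an RNA without a tail, so the longest run of A on the coding strand is shown for these 4 genes, in capitals within its flanks:
cemA, Pltd:60741-60771: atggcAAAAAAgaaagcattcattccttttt
rpl20, Pltd:68512-68541: tatacaatttcgaatgacatAAAAAAAtaa
clpP, Pltd:70384-70436: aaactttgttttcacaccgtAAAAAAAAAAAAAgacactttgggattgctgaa
rpl2, Pltd:84413-84459: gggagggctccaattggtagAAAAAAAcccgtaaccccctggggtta
The run of clpP, 13 bases long, lies outside its coding exons. The runs of rpl20 and rpl2 had 7 bases and that of cemA had 6. In the 85 protein-coding chloroplast genes of RefSeq, the longest run ranged from 2 to 14 bases with a median of 6, and 10 genes had a run of at least 10 bases. Per kilobase of coding sequence, the Col-0 mean in medium was 2701 normalized counts for rpl2, 2171 for clpP, 1037 for cemA and 510 for rpl20. The order of these levels was not that of the runs, and the part of such runs in the counts was not tested.

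The sequence of rpl2 occurs as 2 identical copies, at Pltd:84337-85843 on the minus strand and at Pltd:152806-154312 on the plus strand, and its annotation does not say which copy ATCG01310 is. In all, 34.0% of the chloroplast genome has a second copy within the chloroplast genome (at least 100 bases at an identity of at least 95%), 3.07% has a copy in the mitochondrial genome and 5.35% in the nuclear genome. Of 129 RefSeq chloroplast genes, 32 have an identical copy of the whole gene and 12 overlap another gene. Reads from such stretches may not be assignable to 1 gene, and how they were counted is not given in the sources used here. The single-copy genes cemA, rpl20 and clpP had no such copy elsewhere. Windows from 250 bases before to 50 after the gene start were searched on both strands for the boxes of the bacterial-type promoter. The sequence of the minus 35 box, TTGACA, was found in the window of rpl2 alone among these 4 genes. It lay there on the strand opposite to the gene, so not in the orientation of a promoter of rpl2. On either strand it was found in 20.2% of all 129 windows. The minus 10 box, searched as TATAAT, was found in none of these 4, and on either strand in 38.8% of all windows.

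Chloroplast genes took a smaller share of the library in ibm1-1 than in Col-0 in medium. Their share was 1.86% and 1.77% of all counts in the Col-0 libraries, and 1.21% and 0.998% in the ibm1-1 libraries. Both mutant libraries lay below both wild-type libraries, and the means were 1.81% ± 0.067 and 1.103% ± 0.148 (SD, n = 2), which is a ratio of 0.608. The 95% Wilson intervals, which cover counting error only, ran from 1.203% to 1.212% in the higher ibm1-1 library and from 1.761% to 1.772% in the lower Col-0 library. With 2 libraries per genotype an exact permutation test cannot go below p = 0.33, and it gave that value (two-sided). These shares rest on 370907 and 378286 chloroplast counts in Col-0 and on 230733 and 182323 in ibm1-1, in libraries of 18260809 to 21411230 counts.

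In soil, chloroplast genes took a far smaller share, and the genotypes overlapped in their share of raw counts. The soil share sums only the 53 members listed there, and the medium share all 112. The share was 0.0243%, 0.0227% and 0.0240% in the Col-0 libraries and 0.0229%, 0.0201% and 0.0198% in the ibm1-1 libraries. One ibm1-1 library lay above the lowest Col-0 library. The means were 0.0237% ± 0.00083 and 0.0209% ± 0.0017 (SD, n = 3), a ratio of 0.884, and an exact permutation test (two-sided) gave p = 0.2, where the smallest possible value is 0.1. Each soil library held only 4540 to 6569 chloroplast counts among 19957585 to 27001069. The shares use raw library totals, not the scaling factors of the gene-by-gene fits. Those factors were 0.956 to 0.967 in Col-0 and 1.03 to 1.05 in ibm1-1, which would lower the ibm1-1 shares against those of Col-0. Scaled shares were not computed.

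**Figure D1:**
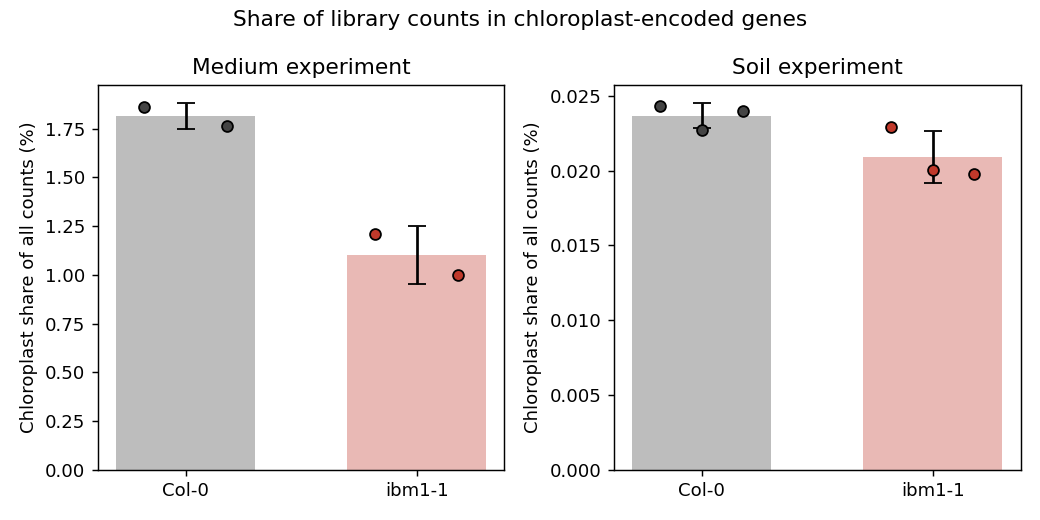
Share of all counts that fell in chloroplast genes (%, y axis) for Col-0 and ibm1-1 in medium (left) and soil (right), with 1 point per library, bars for the mean and error bars for the SD. In medium both ibm1-1 libraries (1.21% and 0.998%) lie below both Col-0 libraries, and in soil, on an axis of hundredths of a percent, the genotypes overlap. The medium shares sum 112 genes and the soil shares the 53 listed there.

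Other RNA that a poly(A) selection should leave out was not alike in the 2 experiments. The medium experiment lists 146 mitochondrial rows and the soil experiment 12, so their mitochondrial shares sum unlike sets of genes. The mean mitochondrial share was 0.0776% ± 0.0035 in Col-0 and 0.0511% ± 0.0038 in ibm1-1 in medium (SD, n = 2), and 0.00307% ± 0.00013 and 0.00514% ± 0.00039 in soil (SD, n = 3), with no overlap of the genotypes in either (exact permutation p = 0.33 and 0.1, the smallest possible). A single mitochondrial gene held 69.6% of the mitochondrial counts in medium. Among the 23 mitochondrial genes tested in medium, 11 lay below 0 and 12 above, with a median log2 fold change of 0.12, whereas the 8 tested in soil all lay above 0 (median 1.09). The share of the nuclear rRNA genes was 0.0814% and 0.0686% in Col-0 and 0.0522% and 0.0620% in ibm1-1 in medium, and 0.0138% ± 0.00074 and 0.0207% ± 0.0029 in soil (SD, n = 3). By gene, 1 of the 5 rRNA genes was higher and 0 lower in medium at an adjusted p below 0.05 (median log2 fold change −0.19), beside 11.5% and 7.77% of all genes. Both of those listed in soil were higher (median 1.25), where 25.4% of all genes were. They were AT3G41768 (0.46) and AT3G41979 (2.04), the latter with only 2.0 to 9.3 normalized counts per Col-0 library. Thus chloroplast, mitochondrial and nuclear rRNA shares were all lower in ibm1-1 in medium, while in soil the last 2 were higher over the fewer genes listed there. The part of RNA selection in the chloroplast difference was not tested.

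Gene by gene, nearly all chloroplast transcripts lay lower in ibm1-1 in medium. Of the 112 members, 102 passed the filter on low counts, 96 of them with the minimum count in all 4 libraries and 6 in the Col-0 libraries only. The other 10 had summed counts of 15 to 34. The log2 fold change (ibm1-1 over Col-0) was below 0 for 101 of the 102, where it was for 10673 of the 20871 genes tested. The members had a median of −0.68 and quartiles of −0.85 and −0.48, beside a median of −0.01 over all genes. Without the filter, all 112 members had a value, 107 lay below 0 and the median was −0.68. The members that passed include those that did so through Col-0 alone, so this last count is the one that covers every member.

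At an adjusted p below 0.05, 51 of the 102 were lower in ibm1-1, where 7.77% of all genes were, and 0 were higher, where 11.5% of all genes were (edgeR's quasi-likelihood test). At an unadjusted p below 0.05, 70 were lower and 0 higher, beside 3210 and 3768 of the 20871 genes tested. DESeq2 put 43 lower and 0 higher at an adjusted p below 0.05, and all genes were not counted by that measure. With a fold change above 2 in addition, 8 were lower beside a background of 1.53%, and 0 were higher beside 5.53%. The libraries of the genotypes did not overlap for 82 members, with 81 lower in ibm1-1 (31.0% of all genes) and 1 higher (30.8%). These counts rest on the members that passed the filter, some of them through Col-0 alone. Without the filter, 71 of the 112 members were lower at an adjusted p below 0.05, 9 of them more than 2-fold, and 0 were higher. In that fit 1704 of 27841 genes were called beyond 2-fold in either direction. All genes lower at an adjusted p alone were not counted there, so the 71 have no background. Non-overlap was not counted for the members without the filter. The counts of calls depended on single libraries. Without Col-0 replicate 1, 26 were lower at an adjusted p below 0.05 and 2 of them more than 2-fold, whereas the count beyond 2-fold was 26 without Col-0 replicate 2 and 23 without ibm1-1 replicate 1.

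**Figure D2:**
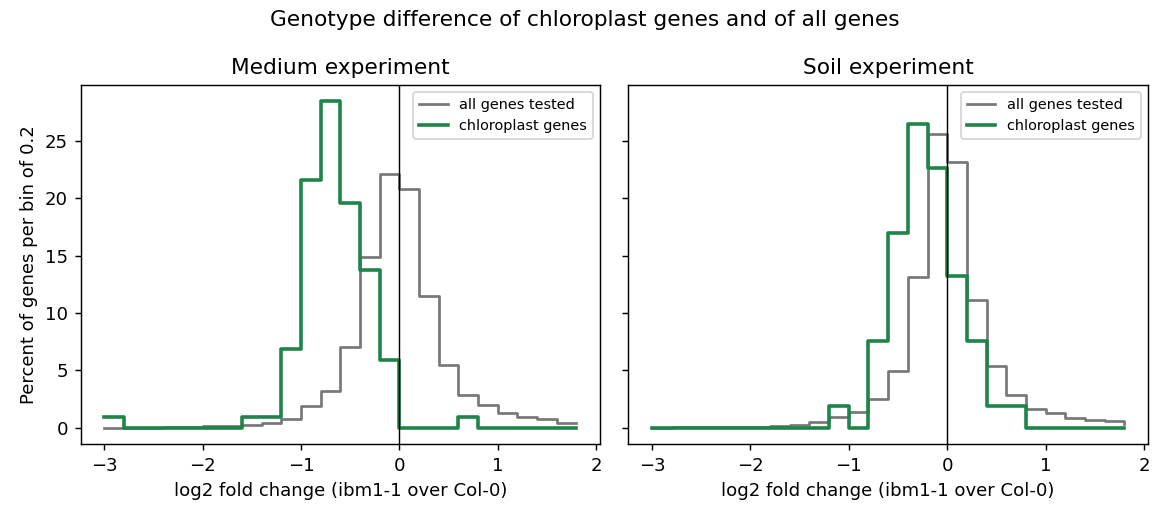
Distribution of log2 fold changes (ibm1-1 over Col-0, x axis, bins of 0.2) as percent of genes (y axis), for chloroplast genes and for all genes tested, in medium (left) and soil (right). In medium the chloroplast genes centre on a median of −0.68 and all genes on −0.01, and in soil the medians are −0.21 and 0.00016.

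The median difference was compared over the range of levels among the members tested. The 34 most abundant members, with mean normalized counts of 666 to 57221, had a median log2 fold change of −0.67 and 23 passed the adjusted p. The 34 in the middle, from 113 to 653, had a median of −0.69 and 21 passed. The 34 least abundant, from 9.94 to 107, had a median of −0.67 and 7 passed, with a median standard error of 0.32 against 0.19 for the most abundant. They include the 6 that passed the filter through Col-0 alone, without which the median of the other 28 was −0.63 and 6 passed. The 10 members not tested are not among them. The log2 fold changes of the least abundant members spread from −2.98 to 0.74, and those of the most abundant from −1.16 to −0.27.

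A few transcripts held most of the chloroplast counts. The 4 most abundant members of each library held 51.0% to 55.7% of its chloroplast counts in medium and the 10 most abundant held 78.2% to 80.1%. ATCG00480, the most abundant in every library, showed 60874 and 75121 normalized counts for Col-0 and 50898 and 41990 for ibm1-1. The genotypes did not overlap, and the log2 fold change was −0.55 (SE 0.16, adjusted p = 0.0407). ATCG01130 had 54901 and 40441 in Col-0 and 32887 and 20610 in ibm1-1, which gave −0.83 (SE 0.22, adjusted p = 0.0287). Its replicates differed widely within each genotype, although every ibm1-1 value lay below every Col-0 value.

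ATCG00470 showed the closest replicates among these 4, at 45199 and 44183 in Col-0 and 25249 and 24412 in ibm1-1. Its log2 fold change was −0.85 (SE 0.13, adjusted p = 0.00168). ATCG01020 had 24799 and 29622 in Col-0 and 16213 and 18169 in ibm1-1, again without overlap (−0.66, SE 0.14, adjusted p = 0.00982). Without the most abundant member, the chloroplast share in ibm1-1 over Col-0 was −0.75 on the log2 scale, against −0.72 with it. The call of ATCG00480 ended without Col-0 replicate 2 (adjusted p = 0.0943) and without ibm1-1 replicate 2 (0.216). That of ATCG01130 ended without Col-0 replicate 1 (0.0991), without ibm1-1 replicate 2 (0.0847) and with DESeq2 (0.156), and that of ATCG01020 ended without ibm1-1 replicate 1 (0.0842).

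ATCG00430, cemA and clpP were lower in ibm1-1 past the adjusted p. The normalized counts of ATCG00430 were 10091 and 7741 in Col-0 against 5079 and 5035 in the mutant, which gave −0.82 on the log2 scale (SE 0.14, adjusted p = 0.00392). The gene cemA (ATCG00530) had 755 and 676 in Col-0 and 446 and 409 in ibm1-1, which gave −0.74 (SE 0.12, adjusted p = 0.00244). For the protease gene clpP (ATCG00670) the values were 1484 and 1082 in Col-0 and 846 and 845 in ibm1-1 (−0.60, SE 0.15, adjusted p = 0.0201). In all 3 the mutant values lay close together and below both wild-type values. The call of clpP ended without Col-0 replicate 1, where the adjusted p was 0.0601.

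The numbers placed as the ribosomal protein genes rpl20 and rpl2 did not pass the test. The other copy of rpl2 was not matched to a number, so ATCG01310 may not stand for the whole gene. The normalized counts of rpl20 (ATCG00660) were 205 and 156 in Col-0 and 158 and 118 in ibm1-1 (−0.39, SE 0.20, adjusted p = 0.211). The values of rpl2 (ATCG01310) were 1124 and 3333 in Col-0 and 1904 and 1801 in ibm1-1. Its wild-type libraries thus enclosed both mutant libraries, and the log2 fold change of −0.27 (SE 0.37, adjusted p = 0.651) became 0.72 without Col-0 replicate 2 and −0.85 without Col-0 replicate 1, both past the threshold.

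**Figure D3:**
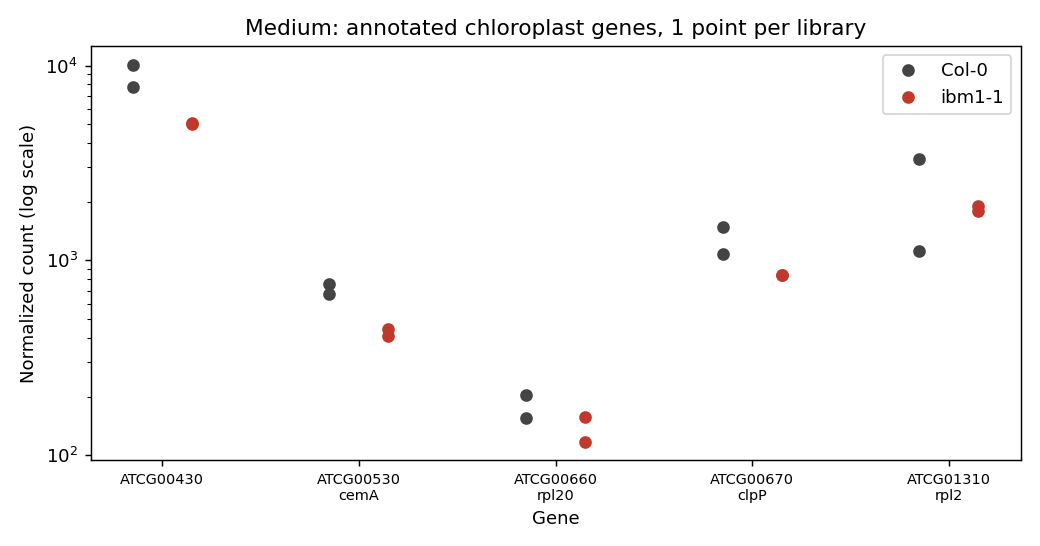
Normalized counts (y axis, log scale) of 5 chloroplast genes named in RefSeq notes, in the medium libraries, with 1 point per library in grey for Col-0 and red for ibm1-1. The genotypes are apart for ATCG00430, cemA and clpP and overlap for rpl20 and for rpl2, where the Col-0 libraries had 1124 and 3333.

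At the extremes stood transcripts of moderate or very low level. The lowest log2 fold change was that of ATCG00390, with raw counts of 24 and 13 in Col-0 and 3 and 1 in ibm1-1 (−2.98, SE 0.72, adjusted p = 0.0184), and its adjusted p was 0.116 when Col-0 replicate 1 was left out and 0.0627 when ibm1-1 replicate 2 was. It was among the members that reached the minimum count through Col-0 alone. ATCG00150 came next, at 1076 and 492 normalized counts for Col-0 and 288 and 289 for ibm1-1 (−1.44, SE 0.29, adjusted p = 0.00835), and its value was −0.78 without Col-0 replicate 1 and −1.90 without Col-0 replicate 2. The 1 member above 0 was ATCG00410, with raw counts of 17 and 14 in Col-0 and 19 and 27 in ibm1-1 (0.74, SE 0.40, adjusted p = 0.233). Next highest was ATCG00560, with raw counts of 17 and 11 in Col-0 and 14 and 10 in ibm1-1 (−0.06, SE 0.47, adjusted p = 0.949).

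Replicates of ibm1-1 differed over stretches of neighbouring locus numbers. The genes cemA, rpl20 and clpP lie on the chloroplast genome in the order of their numbers, but the position of the other members was not looked up. From ATCG00740 to ATCG00830, all 10 members tested were higher in ibm1-1 replicate 1 than in replicate 2, by 0.56 to 0.93 on the log2 scale (median 0.84), where the median of the other 92 members was 0.11. From ATCG01060 to ATCG01130 the same held for all 8 members, by 0.53 to 1.37 (median 0.71). Between the Col-0 replicates the medians of these stretches were 0.04 and 0.10, beside 0.34 for the other members of either comparison. Both stretches were chosen after their values were seen, and they lie within longer runs above 0, of 13 members from ATCG00710 and of 9 from ATCG01050. The Col-0 ratio, which lay above 0 for most members, had runs above 0 of up to 9 members elsewhere. Across the 69 members with a mean normalized count of at least 100, neighbours in number had a Pearson correlation of 0.56 for the difference between ibm1-1 replicates, 0.20 for that between Col-0 replicates and 0.16 for the log2 fold change between genotypes (68 pairs of neighbours, which share libraries and may share transcripts). The median log2 fold change between genotypes was −0.68 in the first stretch and −0.65 in the second.

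**Figure D4:**
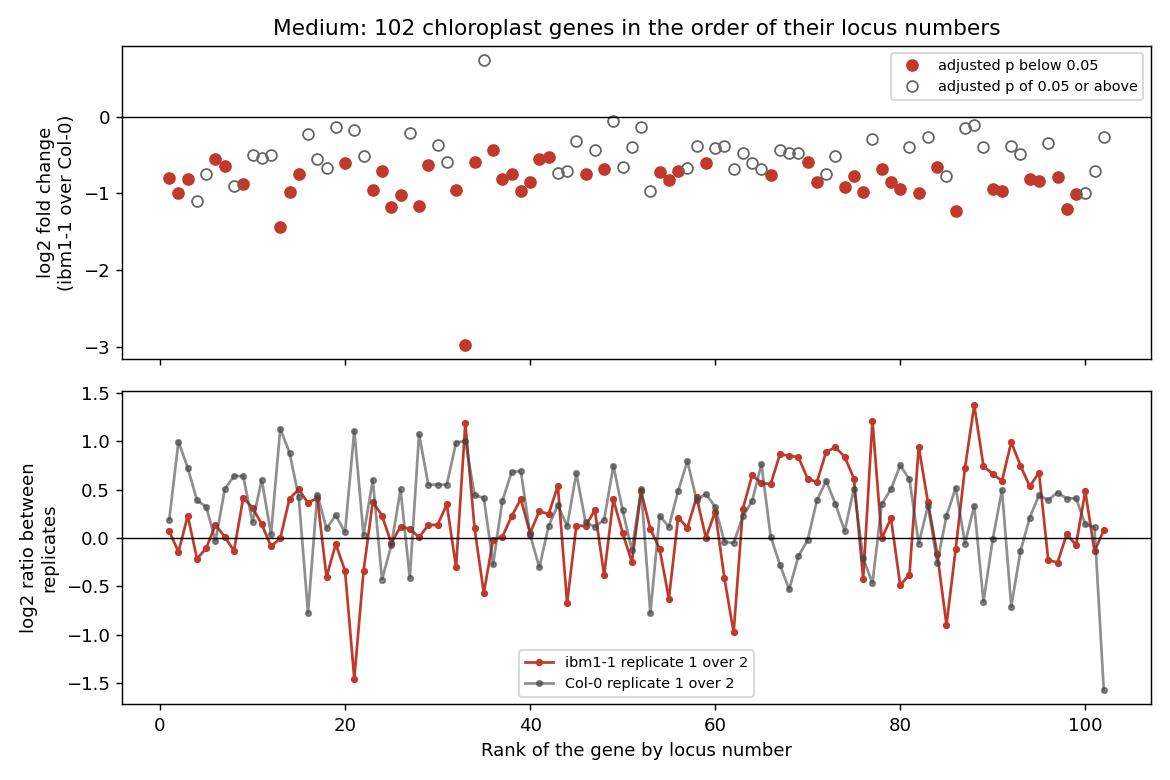
Chloroplast genes of the medium experiment in the order of their locus numbers (x axis, rank 1 to 102). The upper panel shows the log2 fold change between genotypes, filled where the adjusted p is below 0.05, and 101 of 102 points lie below 0. The lower panel shows the log2 ratio of replicate 1 over replicate 2 within each genotype, where the longest runs of the ibm1-1 line above 0 hold 13 and 9 successive genes.

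In soil the same genes were hardly captured, and fewer of them differed. The 53 members listed there had summed counts of 66 to 4238 over the 6 libraries, with a median of 309. The 59 members not listed included genes with up to 21251 summed counts in medium. All 53 passed the filter, and 40 had a log2 fold change below 0, where 10034 of the 20082 genes tested did. The member median was −0.21, beside 0.00016 for all genes. At an adjusted p below 0.05, 12 of 53 were lower in ibm1-1, close to the 25.9% of all genes that were, and 1 was higher, where 25.4% of all genes were. With a fold change above 2 in addition, 1 was lower beside 2.39% of all genes, and 0 were higher beside 5.87% (edgeR). At an unadjusted p below 0.05, 13 were lower and 2 higher, beside 5678 and 5626 of the 20082 genes tested. DESeq2 put 0 higher at an adjusted p below 0.05. The genotypes did not overlap for 14 members lower in ibm1-1, beside a background of 28.7%, and for 3 higher, beside 28.5%. With library size alone as the scale, the median of all genes shifted by 0.12, which left 8 members lower and 3 higher. The member median was then −0.09, with 32 members below 0. Without ibm1-1 replicate 2, 7 were lower.

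The most abundant soil transcript was again ATCG00480. Its normalized counts were 919, 837 and 806 for Col-0 and 582, 576 and 546 for ibm1-1, so the genotypes were well apart (−0.59, SE 0.06, adjusted p = 1.2e-09). ATCG01020 had 426, 397 and 371 in Col-0 and 249, 254 and 267 in ibm1-1 (−0.63, SE 0.08, adjusted p = 6.8e-08). ATCG00470 had 178, 138 and 169 in Col-0 and 112, 104 and 96.1 in ibm1-1 (−0.65, SE 0.13, adjusted p = 7.1e-05). These 3 transcripts were thus lower in the mutant in both experiments.

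The genes cemA and clpP had log2 fold changes near 0 in soil. The normalized counts of cemA were 117, 80.1 and 89.0 for Col-0 and 84.1, 90.7 and 92.3 for ibm1-1 (−0.11, SE 0.15, adjusted p = 0.549). For clpP they were 131, 83.9 and 83.0 in Col-0 and 113, 86.0 and 81.8 in ibm1-1 (−0.11, SE 0.17, adjusted p = 0.602). In both genes Col-0 replicate 1 stood highest and the genotypes overlapped. The log2 fold change was −0.02 for ATCG00430 (SE 0.24) and −0.02 for ATCG00150 (SE 0.22), neither past the threshold. The numbers placed as rpl20 (ATCG00660) and rpl2 (ATCG01310) were not listed in soil, and the other copy of rpl2 was not matched to a number.

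In the opposite direction, ATCG01130 stood at 24.1, 16.3 and 21.2 normalized counts for Col-0 and 46.0, 24.6 and 27.6 for ibm1-1 (0.64, SE 0.28, adjusted p = 0.0569), and 1 mutant library stood well above the rest. The adjusted p fell to 0.0205 with scaling by library size alone. The 1 member higher past the threshold was ATCG00350, with 75.9, 78.9 and 58.7 in Col-0 and 94.9, 91.6 and 91.3 in ibm1-1 (0.39, SE 0.15, adjusted p = 0.0347). The 1 member lower by more than 2-fold was ATCG00690, with raw counts of 35, 15 and 25 in Col-0 and 17, 14 and 9 in ibm1-1 (−1.02, SE 0.32, adjusted p = 0.00787), and it did not pass the fold threshold without Col-0 replicate 1 or ibm1-1 replicate 3. Both were named after their values were seen.

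The level of single transcripts also differed unevenly between the experiments. Among the 53 members listed in both, the Col-0 mean in CPM, the count scaled to a common library total, was higher in medium by a median of 11.5-fold, and the ratio ranged from 1.87 to 2954. ATCG01130, second of the 53 in medium with 2436 CPM, was 45th in soil with 0.825. ATCG00480 was first in both, with 3488 and 34.3. The Spearman correlation of the 53 levels between the experiments was 0.36, and the points share their libraries. The experiments differ in age, growth, library and read processing, which cannot be told apart here.

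The difference of the genotype effect between the experiments was tested itself, with limma's voom and quality weights on the 10 libraries. Of the 53 members, 48 had a higher log2 fold change in soil than in medium, by a median of 0.40 where the median of all genes was 0.01. At an adjusted p below 0.05, 8 were higher, which is 15.1% beside 7.81% of the 20192 genes tested, and 0 were lower, beside 10.0% of genes (0 also at an unadjusted p below 0.05). Without quality weights 3 were higher and 0 lower. The 8 included cemA, by 0.65 (SE 0.19, adjusted p = 0.0198), ATCG00430 by 0.83 (SE 0.26, adjusted p = 0.0324), ATCG00350 by 0.76 (SE 0.22, adjusted p = 0.0199), ATCG00150 by 1.36 (SE 0.42, adjusted p = 0.0283) and ATCG01130 by 1.57 (SE 0.49, adjusted p = 0.0311). Of these 5, cemA alone also passed without quality weights (adjusted p = 0.0222), and the other 2 that did were ATCG00170 and ATCG00490. The difference was −0.03 (SE 0.13) for ATCG00480 and 0.03 (SE 0.13) for ATCG01020.

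**Figure D5:**
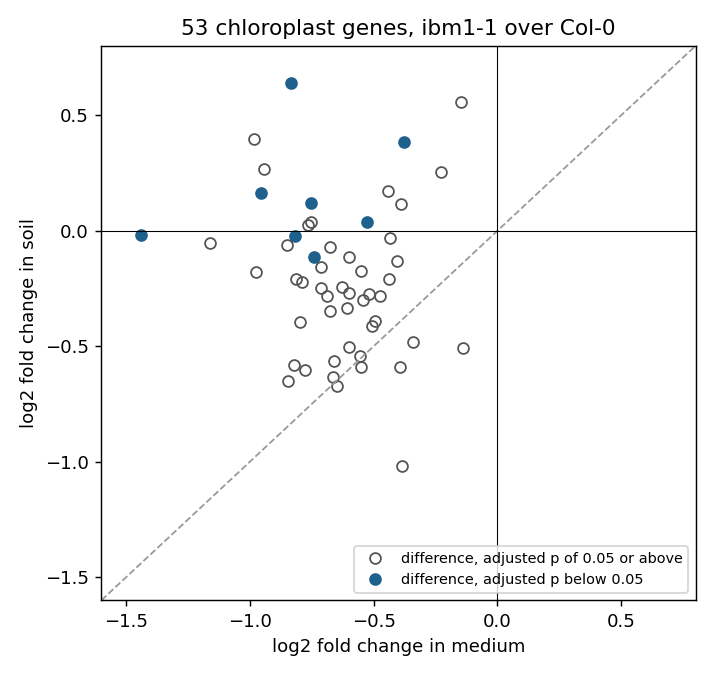
Log2 fold change (ibm1-1 over Col-0) of the 53 chloroplast genes in medium (x axis) and in soil (y axis), with 1 point per gene, a dashed line of equal values and filled points where the difference between the experiments has an adjusted p below 0.05. Most points lie above the line, and the 8 filled points are all higher in soil than in medium.

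Nuclear genes that work with these transcripts were described from lists of subunits, transcription factors and RNA-processing proteins. Of 29 nuclear partner subunits of the photosystems, cytochrome b6f complex, ATP synthase, NDH complex and Rubisco, 8 were lower and 0 higher in medium at an adjusted p below 0.05, with a median of −0.21, where 7.77% of all genes were lower and 11.5% higher. The lower ones were the Rubisco small subunit genes RBCS2B (−0.64, adjusted p = 0.0110) and RBCS3B (−0.60, adjusted p = 0.0166), the photosystem genes PSBR (−0.57) and PSAG (−0.44), and the NDH genes NDHL (−0.46), NDHM (−0.56), NDHN (−0.44) and NDHO (−0.44). In soil 23 of the 29 were lower and 2 higher, beside 25.9% and 25.4% of all genes, with a median of −0.28. The higher ones were RBCS1B (0.32, adjusted p = 6.2e-04), whose genotypes overlapped, and NDHM (0.13, adjusted p = 0.0265), which was lower in medium, and among the lower were PSBQ2 of photosystem II (−0.50, adjusted p = 1.3e-10) and PSAN of photosystem I (−0.39, adjusted p = 9.5e-09). The mean summed share of these 29 genes in medium was 4.95% ± 0.171 of all counts in Col-0 and 3.999% ± 0.109 in ibm1-1 (SD, n = 2, without overlap), a ratio of 0.808. In soil the share of raw counts was 6.51% ± 0.171 and 6.01% ± 0.541 (SD, n = 3, with overlap). Their summed normalized counts in soil did not overlap, at 1560817 to 1661626 in Col-0 and 1260701 to 1537498 in ibm1-1. The ratio of the chloroplast share in medium, 0.608, was thus lower than that of its nuclear partners, and that of soil was 0.884 beside 0.923. These are ratios of raw shares, and their difference was not tested.

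Of 20 nuclear genes for chloroplast transcription, 2 were lower (10.0%) and 0 higher in medium, near the 7.77% of all genes that were lower, with a median of −0.15. They were PAP1, a core protein of the transcribing chromosome (−0.41, adjusted p = 0.0318), and SIG5, a stress-responsive sigma factor (−0.43, adjusted p = 0.0493). In soil 5 of the 20 were lower, near the background of 25.9%, and 8 were higher (40.0%, beside 25.4% of all genes), with a median of 0.01. There SIG5, lower in medium, was higher (0.59, adjusted p = 6.0e-09) while SIG2 (−0.29) and SIG6 (−0.24) fell. Of 14 genes for chloroplast RNA processing, 2 were lower (14.3%, beside 7.77% of all genes) and 0 higher in medium (median −0.24), the 3′ exonuclease PNPase (−0.44, adjusted p = 0.0246) and the RNA-binding protein CSP41a (−0.46, adjusted p = 0.0202), and in soil 9 were lower, both of these included, and 2 higher (64.3% and 14.3%, beside 25.9% and 25.4% of all genes; median −0.22).

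Markers of root cells were also read, since whole seedlings hold organs with few green chloroplasts. All 12 were detected in medium and none was at 0, and 4 were lower (33.3%, beside 7.77% of all genes) and 0 higher in ibm1-1 at an adjusted p below 0.05, with a median of −0.34: the iron transporter gene IRT1 (−1.50) and the endodermal genes CASP1 (−0.75), PER64 (−0.57) and ESB1 (−0.53). Their summed level was 54148 to 58951 normalized counts in Col-0 and 60268 to 72285 in ibm1-1, most of it from PYK10, whose log2 fold change was 0.26 (adjusted p = 0.238). In soil, 11 of the 12 were listed, 3 were higher (27.3%, beside 25.4% of all genes) and 1 lower (9.09%, beside 25.9%), with a median of −0.14. IRT1 had the opposite direction there, with 1.61 (adjusted p = 1.2e-13), and the summed level was 13661 to 14211 in Col-0 and 15608 to 16586 in ibm1-1. The part of organ proportions in the chloroplast difference was not tested.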

How the data were processed

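The authors sequenced mRNA libraries of whole seedlings (NEBNext Ultra Directional kit) and counted reads per TAIR10 gene. They deposited raw counts without normalization. By the methods, medium reads passed through Trimmomatic, HISAT and htseq-count, and soil reads through SolexaQA, cutadapt, TopHat and HTSeq-count, while the submitters' processing notes name Trimmomatic 0.36, HISAT2 2.1.0 and HTSeq 0.9.1 for both. The strand setting is not given in the sources used here. The 40 empty soil columns were ignored. Bisulfite samples were not analysed here.

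Each experiment was fitted alone over all genes with the quasi-likelihood test of edgeR 4.0.16 (R 4.3.3; filterByExpr filter, TMM scaling), p-values were adjusted by Benjamini-Hochberg over every gene tested, and calls were made at an adjusted p below 0.05, with or without a fold change beyond 2. Normalized counts are counts scaled to the mean effective library size of the experiment. Standard errors are the absolute log2 fold change over the root of F. The soil minus medium difference was fitted with limma 3.58.1, and DESeq2 1.42.0 was an alternative. Scripts were tested on simulated data. Members and gene lists were chosen with earlier results of these data known.

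Named members were the 4 most abundant in medium, annotated ones, and the 2 highest and 2 lowest log2 fold changes. The plan named more per gene group, which needs gene names that most ATCG numbers lack here. One item is not reported here.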

Additional observations from a re-analysis of the deposited data

Results flagged for a closer look

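By a test of the difference itself, 7.81% of all genes tested had a higher genotype effect in soil than in medium, and 10.0% a lower one. Among the chloroplast genes the effect differed for 8 of 53 (15.1%), all higher in soil than in medium. Among those named, the soil minus medium log2 fold change was 1.36 for ATCG00150, 0.76 for ATCG00350, 0.83 for ATCG00430, 0.65 for cemA (ATCG00530) and 1.57 for ATCG01130. Without quality weights the adjusted p of the first 3 was 0.152, 0.0598 and 0.108 and that of ATCG01130 was 0.114, so that cemA alone of these kept its call, beside ATCG00170 (0.90) and ATCG00490 (0.60), named after their values were seen. Soil counts of these genes were low, ATCG01130 with 13 to 47 raw counts per library, and the experiments differ in age, growth and read processing as well.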

How the results depend on the processing

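The medium share of chloroplast genes (log2 ratio −0.72) ranged from −0.86 to −0.59 with single libraries left out, and the soil share (−0.18) from −0.25 to −0.14. In medium, 51 members lower at an adjusted p below 0.05 became 26 to 58 with single libraries left out, and the 8 lower by more than 2-fold became 2 to 26, while the 0 higher at an adjusted p became 0 to 1. Restricting them to the members listed in soil, an alternative chosen after seeing the data, gave 31 and 2. A mean CPM of at least 5 left 69 members, with 42 lower and 5 beyond 2-fold, and 657 genes called in all in place of 1473. In soil the same filter left 12 members, with 7 lower, 0 higher and 0 beyond 2-fold, and 650 genes called in place of 1657. Scaling by library size alone gave 0 beyond 2-fold and 3 higher in soil, and DESeq2 gave 0 higher. With single soil libraries left out, 7 to 15 were lower, 0 to 3 higher, 0 to 1 lower beyond 2-fold and 0 to 1 higher beyond 2-fold. The 8 members with a higher effect in soil became 3 without quality weights.

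The labels give replicate numbers and no pairing of replicates. Same-numbered deviations correlated by 0.13 in medium and by −0.02 to 0.02 in soil. With 2 libraries per genotype, the medium value cannot settle whether replicates were paired. With the replicate block, 67 medium members were lower and 9 beyond 2-fold, and in soil 12 were lower, 2 higher and 0 beyond 2-fold. Over all medium genes, the block called 1575 beyond 2-fold in either direction, in place of 1473. All genes at an adjusted p alone were not counted in this or the other alternative fits, so those member counts have no background.

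Among the named genes, signs changed for values near 0 or with unlike replicates. With library size alone the soil values of ATCG00430, cemA (ATCG00530), clpP (ATCG00670) and ATCG00150 were 0.10, 0.0027, 0.0055 and 0.10. With single libraries left out, the soil values ranged from −0.18 to 0.075 for ATCG00430, −0.21 to 0.068 for cemA, −0.26 to 0.16 for clpP and −0.16 to 0.29 for ATCG00150, and the medium values from −0.85 to 0.72 for rpl2 (ATCG01310) and −0.41 to 0.36 for ATCG00560. The cause was not tested. Where 1 library is left out in medium, the lone sample is assumed to vary like the other genotype. Shares without rRNA and tRNA genes or without genes in 2 copies, and shares by gene group or gene length, were not run, since the ATCG numbers could not be matched to gene names. The 4 medium libraries and low soil counts limit the precision.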
